A study of Homo sapiens with 4 samples.

Results

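Human embryonic stem cells that had received nicotinamide for 24 h were compared with cells in plain E8, a chemically defined medium that keeps such cells pluripotent. The members were the 2 arrays of the titles Nam 24 hrs and E8 24 hrs, of 4 arrays in the study. The Nam cells had E8 medium with 10 mM nicotinamide, and the E8 cells had normal E8 medium, labelled 24 h. The other 2 arrays, used here only to set levels beside these, were of cells given 10 µM of the ROCK inhibitor Y27632 in E8 for 24 h (Y27632) and of cells given BMP4 in E8 for 6 days (Mesoderm). All cells were grown on matrigel. The labels name H9 in one field and H1 in another, both established lines. Of the 4 arrays, 4 failed to match the line given under characteristics, and the line is therefore not named below. RNA was measured on Illumina Expression BeadChips, with 1 array per condition. Neither side had a replicate, so differences are described by size without any test. A difference between the arrays may be one between cultures, RNA preparations or hybridisations.

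Nicotinamide, the amide form of vitamin B3, is turned into NAD by the salvage enzyme NAMPT. It is released when sirtuins and PARP enzymes use NAD, and it inhibits those enzymes. At millimolar doses it is also known to inhibit protein kinases, ROCK and casein kinase 1 among them, and it is used in protocols that guide pluripotent cells towards eye and other fates.

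Values are log2 normalized intensities, called levels here, and a difference is the level on Nam minus that on E8. A probe counted as detected at a detection p of at most 0.01. Of 12083 genes with a detected probe, 11390 were detected on at least 1 of the 2 arrays: 10375 on both, 550 on Nam only and 465 on E8 only. The mean raw signal was 528.5 on Nam and 620.5 on E8, and 18051 and 17779 of 47296 probes were detected. Nam and E8 each detected 9 of 10 stem cell markers, the tenth having no probe here, 0 of 4 endoderm, 0 of 4 trophoblast and amnion, and 0 of 2 endothelial markers. Of 4 mesoderm markers 1 was just detected on Nam, ISL1, and 0 on E8. Of 4 neuroectoderm markers both arrays detected OTX2 and SIX3, and of 4 fibroblast markers COL1A1 and COL1A2 but not LUM or ACTA2. CD68, 1 of 2 feeder or blood cell markers, was detected on both arrays, at 9.17 on Nam and 9.66 on E8, and PTPRC on neither. The summed raw signal of the neuroectoderm list was 793.3 on Nam and 1259.9 on E8, and that of the fibroblast list 961.1 on Nam and 1584.4 on E8. The feeder or blood list summed to 790.8 on Nam and 1204.5 on E8, and the stem cell list to 50762.2 on Nam and 64783.8 on E8. Only the endothelial list went the other way, with 283.3 on Nam and 256.2 on E8, and neither array detected its 2 markers. These sums are raw and not normalized, and the Nam array had the lower mean raw signal, so their direction alone shows no change in a list.

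Among all compared genes, 79 (0.694%) lay 2-fold or more above E8 on Nam and 178 (1.56%) lay 2-fold or more below it. Many of these were dim: in 54 of the 79 and 72 of the 178 the dimmer array had not detected the probe. The genes that were bright on both arrays, detected with a level of at least 8 on each, numbered 6126. Among them 2 (0.0326%) were 2-fold or more higher and 43 (0.702%) 2-fold or more lower. At 1.5-fold the bright genes split into 66 higher (1.08%) and 195 lower (3.18%), and 95.74% lay within 1.5-fold. The median difference of bright genes was 0.04 with an SD of 0.28, and the SD over all compared genes was 0.38. Between probes of the same gene the SD was 0.30, pooled over 3182 genes. That pool includes dim probes and probes detected on other arrays only, so it is not a like measure for the bright genes. With each array scaled by its median in place of quantile normalization, the median of all compared genes was -0.15 in place of 0.04, and the 2-fold counts were 52 higher and 341 lower. The list medians given below that lie from 0.00 to 0.21 were below 0 with that scaling.

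**Figure D1:**
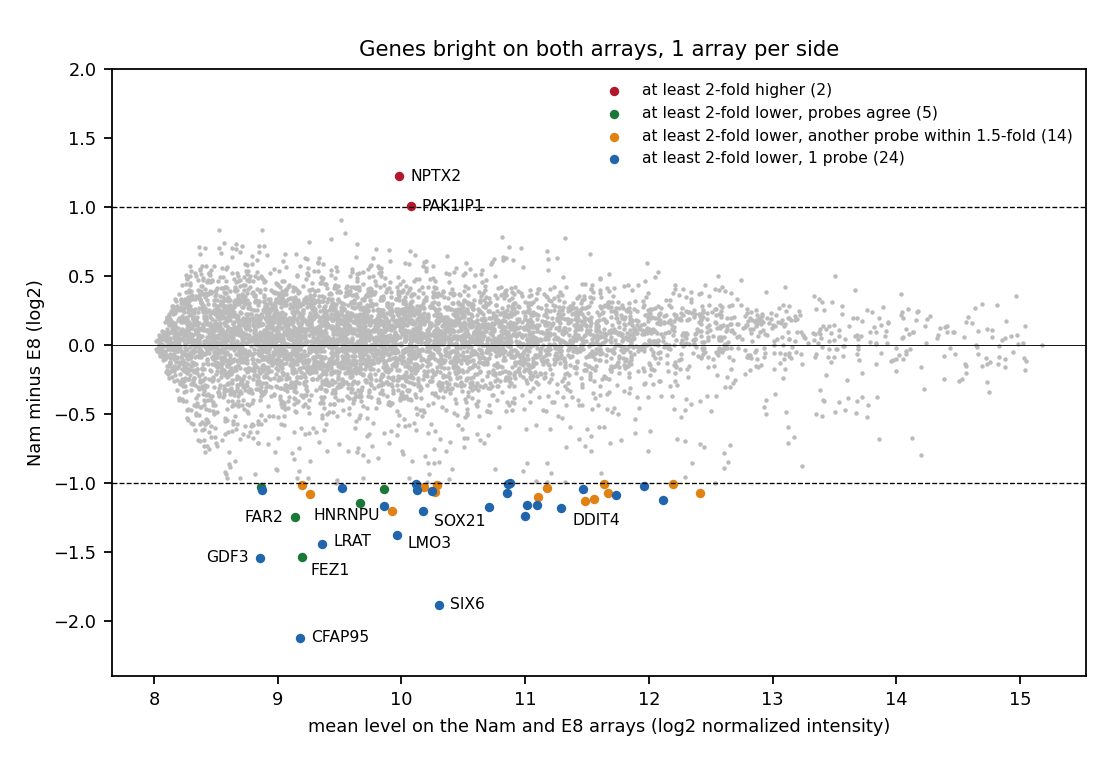
Mean level on the Nam and E8 arrays (x axis, log2 normalized intensity) against the difference, Nam minus E8 (y axis, log2), for the 6126 genes bright on both arrays. Each point is a gene, dashed lines mark 2-fold, and colours mark the 2 genes higher and the 43 lower by 2-fold, with the lower ones split by whether the other probes of the gene follow.

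The 2 bright genes past 2-fold on the higher side were NPTX2 and PAK1IP1. NPTX2, a secreted pentraxin found at synapses, had a level of 10.59 on Nam, 9.83 on Y27632, 6.72 on Mesoderm and 9.37 on E8. Its raw signals were 1506.4 on Nam and 873.5 on E8, and the difference of 1.22, or 2.33-fold, rests on 1 probe. Nam was the highest of the 4 arrays. PAK1IP1, which takes part in ribosome assembly and binds the kinase PAK1, had 10.58 on Nam, 9.82 on Y27632, 9.12 on Mesoderm and 9.57 on E8. Its 2 probes differed by 1.0 and 0.63, both higher on Nam. The next bright gene below 2-fold was SF3B3, a splicing factor subunit, at 0.90.

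A second view required that all probes of a gene detected on both arrays lay on the same side. Of 2594 genes with 2 or more probes detected on both arrays, 9 (0.347%) had every such probe at least 1.5-fold higher on Nam and 35 (1.35%) every probe at least 1.5-fold lower. The 9 were ARRDC4, PAK1IP1, FOXRED2, METTL1, TTPAL, LRRC58, UEVLD, TAF15 and TRNT1. ARRDC4, an arrestin-like protein that limits glucose uptake, was furthest: its level was 7.41 on Nam, 6.54 on Y27632, 6.81 on Mesoderm and 6.24 on E8, and its 2 probes gave 1.17 and 1.45. ARRDC4 was dim, with raw signals of 264.8 on Nam and 204.6 on E8, and 251.9 on Nam and 181.5 on E8 by the other probe. Its difference fell to as little as 0.54 under the alternative settings. Its relative TXNIP, chosen after its value was seen, stood at 11.06 on Nam and 10.44 on E8, a difference of 0.62 on 1 probe. By these brightest probes E8 was the lowest of the 4 arrays for both genes, while the other ARRDC4 probe was not detected on Y27632.

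Among the other 8 agreeing genes were 2 whose products act on transfer RNA. METTL1, which methylates transfer RNA, had 9.95 on Nam and 9.14 on E8, a mean difference of 0.78 over 2 probes. TRNT1, which adds the CCA end to transfer RNA, had 9.39 on Nam and 8.73 on E8, a mean of 0.64. TAF15, an RNA-binding protein of the FET family, had 11.86 on Nam and 11.20 on E8, but 11.74 on Y27632. The level of the Y27632 array thus lay near Nam for TAF15 and nearer to E8 for METTL1, at 9.28. FOXRED2, a flavoprotein of protein degradation in the endoplasmic reticulum, had a mean of 0.81, TTPAL, a lipid transfer protein, 0.75, LRRC58 0.75 and UEVLD 0.73.

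The bright genes lower on Nam were led by CFAP95, a protein of ciliary microtubules, with 8.12 on Nam, 9.65 on Y27632, 8.71 on Mesoderm and 10.25 on E8. Its difference of -2.12 came from 1 probe. SIX6, a transcription factor of the eye field, followed with 9.36 on Nam, 11.49 on Y27632, 4.64 on Mesoderm and 11.25 on E8. Its raw signals were 710 on Nam and 2844 on E8, and the difference was -1.89, or 3.70-fold lower, also on 1 probe. The Mesoderm array did not detect SIX6. GDF3, a ligand of the Nodal family expressed in pluripotent cells, had 8.08 on Nam, 9.59 on Y27632, 7.45 on Mesoderm and 9.63 on E8, a difference of -1.54. For SIX6 and GDF3 the Y27632 and E8 arrays lay close together and Nam stood below both.

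LRAT, which makes retinyl esters, LMO3, a LIM-domain cofactor of transcription, SOX21, a SoxB factor, and CNMD, a glycoprotein first known from cartilage, also lay below E8 on Nam. LRAT had 8.63 on Nam, 10.33 on Y27632, 5.0 on Mesoderm and 10.08 on E8. LMO3 had 9.27 on Nam, 10.58 on Y27632, 5.04 on Mesoderm and 10.65 on E8. SOX21 had 9.57 on Nam, 10.49 on Y27632, 4.54 on Mesoderm and 10.77 on E8. The Mesoderm array detected none of these 3 by the probes given, and Nam lay below Y27632 and E8 in each. Differences of Nam minus E8 were -1.45 for LRAT, -1.38 for LMO3 and -1.20 for SOX21, each on 1 probe detected on both arrays. CNMD had 9.34 on Nam, 10.14 on Y27632, 5.16 on Mesoderm, not detected, and 10.38 on E8, and its 2 probes gave -1.04 and -1.18.

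**Figure D2:**
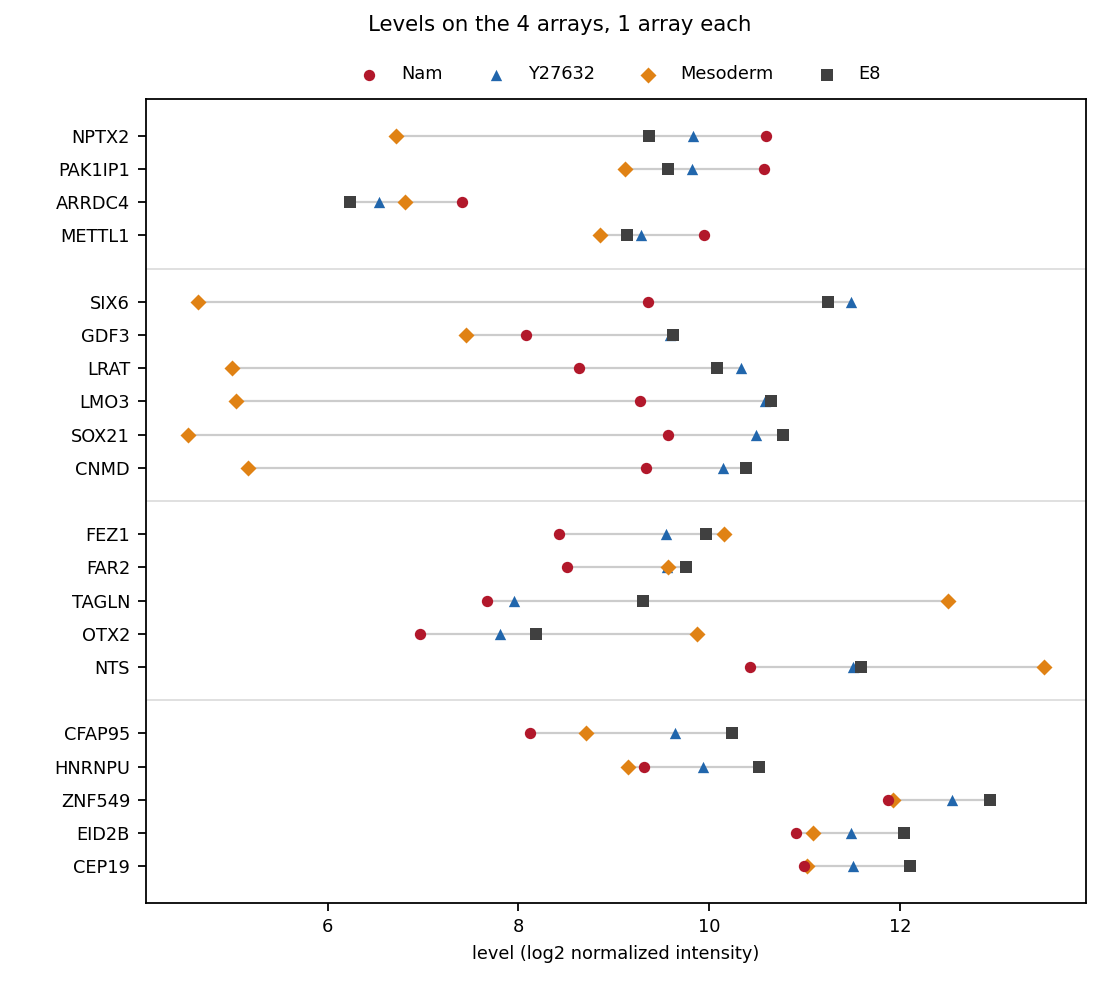
Levels (x axis, log2 normalized intensity) of 20 genes on the Nam, Y27632, Mesoderm and E8 arrays, 1 point per array. From the top, the blocks hold genes higher on Nam, genes lower on Nam whose Mesoderm value is lowest or not detected, genes lowest on Nam of the 4 arrays by their brightest probe, and bright genes for which E8 is the highest array with Y27632 between.

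Of the 43 bright genes at least 2-fold lower, 24 had 1 probe detected on both arrays and 19 had 2 or more. In 5 of the 19 all probes detected on both arrays were at least 1.5-fold lower: FEZ1, FAR2, ZNF483, CNMD and MIR124-1HG. In the other 14 another probe of the gene lay within 1.5-fold or went the other way, and in 5 of these it had the opposite sign. FEZ1, an adaptor of kinesin transport in axons, was furthest among the agreeing genes: its level was 8.43 on Nam, 9.55 on Y27632, 10.16 on Mesoderm and 9.96 on E8. All 4 FEZ1 probes were lower on Nam than on E8, with differences of -1.54 to -1.11, but 2 of them put Mesoderm below Nam. FAR2, a fatty acyl-CoA reductase, had 8.51 on Nam, 9.56 on Y27632, 9.56 on Mesoderm and 9.76 on E8, with both probes within 0.01 of each other at -1.26 and -1.25. ZNF483, a zinc finger protein, gave -1.14 and -0.64, while another probe, detected on Nam only, gave 0.24. MIR124-1HG, a noncoding host transcript of a neuronal microRNA, gave -1.03 and -0.93.

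The 14 genes with disagreeing probes included HNRNPU, a nuclear RNA-binding scaffold protein, whose brightest probe gave -1.20 and its other probe -0.16. EID2B gave -1.13 and 0.41, and the 4 probes of TRIM13, a ubiquitin ligase, ranged from -1.08 to 0.53. ZNF69 gave -1.08 and 0.00, ZNF549 -1.07 and -0.16, XRCC2 of homologous recombination -1.07 and -0.45, FKBP14 of the endoplasmic reticulum -1.10 and -0.41, and the 3 probes of the centriole protein CEP19 -1.11 to -0.24. In these genes the call therefore rests on the brightest probe.

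The 43 genes were taken for E8 above Nam, and the 66 bright genes at least 1.5-fold higher for Nam above E8. Their order on the 4 arrays is therefore partly fixed by that choice and is given as a description. A gap chosen to be wide also holds the level of another array more often. The shares of all bright genes are thus not a like background. E8 was the highest of the 4 arrays in 37 of the 43 (86.0%), against 17.5% of all bright genes. Nam was the highest in 54 of the 66 bright genes at least 1.5-fold above E8 (81.8%), against 31.8% of all bright genes. The Y27632 level lay between Nam and E8 in 40 of the 43 (93.0%) and in 61 of those 66 (92.4%), against 46.8% of all bright genes. It lay at or above E8 in SIX6, LRAT and TRIML2. ZNF549, whose probes disagreed, had 11.88 on Nam, 12.54 on Y27632, 11.93 on Mesoderm and 12.95 on E8. EID2B had 10.92 on Nam, 11.49 on Y27632, 11.09 on Mesoderm and 12.05 on E8. In both the Mesoderm level lay near that of Nam. Mesoderm was within 1.5-fold of Nam in 27 of the 43 (62.8%), against 65.8% of all bright genes, most of which differ little between Nam and E8. The 27 were 1 of the 5 genes with agreeing probes, 12 of the 14 with disagreeing probes and 14 of the 24 with 1 probe. Mesoderm lay at least 2-fold below E8 in 30 of the 43, against 5.51% of the 5676 genes bright on Mesoderm and E8. The part of the E8 array, which all these levels are set against, was not tested.

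**Figure D3:**
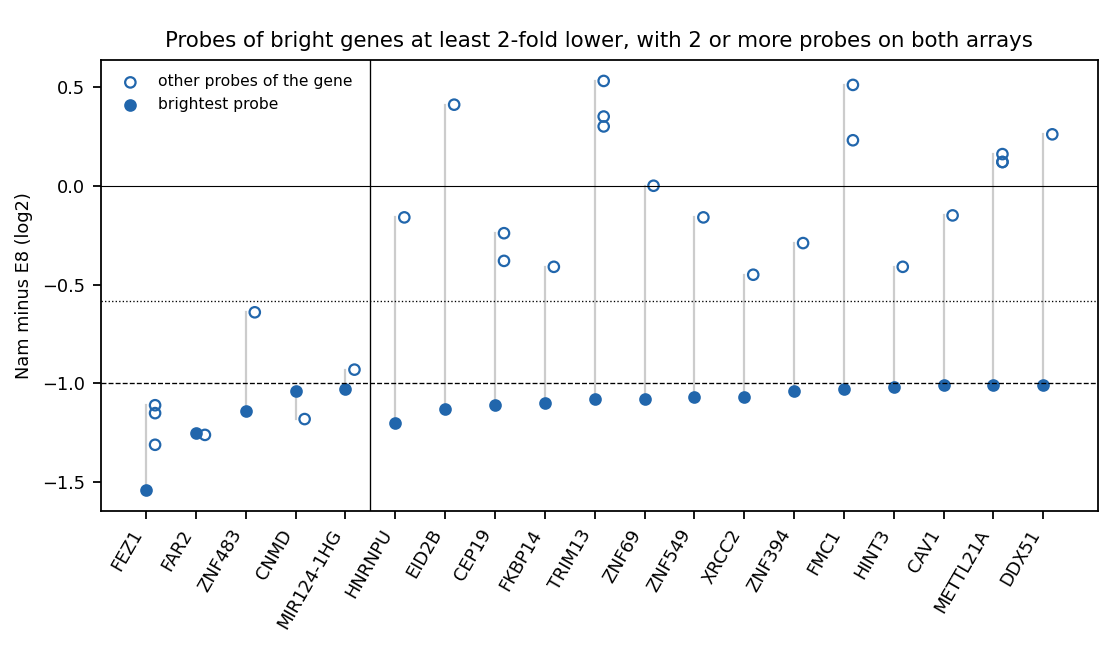
Difference of each probe detected on both arrays (y axis, Nam minus E8, log2) for the 19 bright genes at least 2-fold lower that have 2 or more probes detected on both arrays. Filled points are the brightest probe and open points the others. In the 5 genes left of the vertical line every such probe passes 1.5-fold (dotted line; the dashed line is 2-fold), and in the 14 to its right another probe does not.

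Other bright genes at least 2-fold lower rested on 1 probe detected on both arrays. DDIT4, an inhibitor of the growth kinase mTORC1 induced by low oxygen, had 10.70 on Nam, 11.71 on Y27632, 10.18 on Mesoderm and 11.88 on E8, a difference of -1.18. NTS, the precursor of the peptide neurotensin, had 10.43 on Nam, 11.51 on Y27632, 13.51 on Mesoderm and 11.59 on E8, so Nam was the lowest array and Mesoderm the highest. RARRES2, which encodes chemerin, differed by -1.06, and TRIML2, with 10.13 on Nam, 11.41 on Y27632, 8.51 on Mesoderm and 11.30 on E8, by -1.17. MAGT1, a subunit of the oligosaccharyltransferase, differed by -1.24, the actin-binding SHROOM4 by -1.17 (-0.30 as a mean with a probe detected on Nam only), COA8 of cytochrome oxidase assembly by -1.16, BMS1P1, a pseudogene whose probe may read related copies, by -1.13, and the ciliary gate protein TMEM17 by -1.09. LOC100128288 differed by -1.07, the rhomboid protease RHBDL2 by -1.05 and LRRFIP1 by -1.05. Mesoderm minus Nam was 0.13 for MAGT1, 0.13 for SHROOM4, 0.09 for COA8, -0.11 for BMS1P1 and 0.04 for TMEM17. It was 0.01 for LOC100128288, -0.16 for RHBDL2 and -0.39 for LRRFIP1. From MAGT1 to LRRFIP1, E8 was thus the highest array and Mesoderm lay near or below Nam. The gene just inside 2-fold on this side was CCBE1, and CAVIN3 was just outside, both at -1.0 after rounding and both named for that position alone. NTS, COA8, TMEM17 and CCBE1 each had a further probe that no array detected.

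The 12 agreeing genes with the most negative mean over probes held FEZ1, FAR2, CNMD and MIR124-1HG, described above, and 8 others. SORBS2, an adaptor of actin fibres and focal adhesions, had 6.58 on Nam, 8.49 on Y27632, 5.24 on Mesoderm and 8.57 on E8. Its 2 detected probes gave -2.03 and -1.99, and 2 further probes were detected on neither array. TAGLN, or transgelin, which binds actin in smooth muscle and is a target of the factor SRF, had 7.67 on Nam, 7.96 on Y27632, 12.51 on Mesoderm and 9.30 on E8, with probe differences of -1.64 and -1.02. For TAGLN, unlike SORBS2, the Nam and Y27632 arrays lay close together, both below E8 and far below Mesoderm. OTX2, a homeodomain factor of the anterior brain, eye and primed pluripotent cells, had 6.97 on Nam, 7.81 on Y27632, 9.87 on Mesoderm and 8.19 on E8, with probes at -1.23 and -1.22.

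The rest of that group covered the nuclear receptor RORA, with 4 probes at -1.26 to -0.87, ALKAL2, a ligand of the ALK receptor, at a mean of -1.14, and TDRD1, a Tudor protein of the piRNA pathway in germ cells, at -1.15. STOM, an integral membrane protein, had a mean of -1.05 and ABHD12B, a member of the hydrolase family, of -0.99.

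Where only the brighter array detected the probe, a fold is a lower bound. IDO1, the enzyme that starts tryptophan breakdown, was at least 3.89-fold lower on Nam by its brightest probe: its level was 5.40 on Nam, where it was not detected, 7.15 on Y27632, 5.24 on Mesoderm, where it was not detected, and 7.50 on E8. Its other probe, with 7.34 on E8, gave at least 3.48-fold. Without background correction the difference of IDO1 was -0.84, against -2.10. The next bounds on the lower side were those of BPNT1, a phosphatase of the sulfate pathway (at least 2.85-fold), PAMR1 (2.56), ZNF429 (2.35), OLIG3, a factor of neural progenitors (2.34), and GNG2, a G protein subunit (2.31). On the higher side they were those of the cyclophilin PPID (at least 2.24-fold), MTMR9LP (2.04), the chemokine CXCL5 (1.99, with 2 probes differing by an SD of 0.99), RTN1 of the endoplasmic reticulum (1.95), the intermediate filament PRPH (1.89) and ACSM5 (1.85). The probe furthest above E8 among all genes was that of the ribosomal RNA RNA18SN5, with 10.51 on Nam, 7.86 on Y27632, 10.40 on Mesoderm and 7.69 on E8. It reads a transcript with no regular poly(A) tail and many copies, and it was named here after its value was seen.

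Gene lists were counted at 1.5-fold, which 562 of all 11390 genes (4.93%) passed as higher and 762 (6.69%) as lower. The counts use the normalized values, so a gene that the dimmer array did not detect may count although its lower bound, printed beside it, is under 1.5-fold. The machinery that handles nicotinamide stood near 0. NAMPT, the rate-limiting enzyme of NAD salvage, had 9.02 on Nam and 9.02 on E8. No array detected NNMT, the methyltransferase that clears nicotinamide. Of 19 compared NAD and nicotinamide genes 0 were higher and 2 lower, with a median of 0.00. The 2 were NMRK2, a nicotinamide riboside kinase, with 7.68 on Nam and 8.39 on E8 and probes at -0.72 and -0.59, and SLC25A51, the mitochondrial NAD carrier, at -1.0 with a mean of -0.38 over 2 probes (SD 0.87). NUDT12, which cleaves NADH, was highest at 0.56.

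The enzymes inhibited by nicotinamide also lay within 1.5-fold in most cases. Of 5 sirtuins 0 passed: SIRT1 had 10.43 on Nam and 10.70 on E8, SIRT2 was lowest at -0.31 and SIRT5 highest at 0.08. PARP1, the main poly-ADP-ribose polymerase, had 13.47 on Nam and 13.34 on E8, and of 16 PARP genes 2 were lower, PARP8 (-0.67) and MACROD1 (-0.68), which removes ADP-ribose. Of 5 casein kinase 1 genes 0 passed, with CSNK1A1 at 8.35 on Nam and 8.33 on E8, CSNK1D lowest at -0.15 and CSNK1G2 highest at 0.33. Of 17 genes of the ROCK pathway and myosin 0 passed, with ROCK1 at 7.67 on Nam and 7.75 on E8 and ROCK2 at 14.61 on Nam and 14.77 on E8. The other ROCK1 probe gave 0.35. The other ROCK2 probe was far dimmer, with 8.19 on Nam and 8.43 on E8, a difference of -0.24. The raw signal of the brighter ROCK2 probe on E8, 28841.5, exceeded the 27580.8 of the brightest ACTB probe. These are transcript levels and say nothing of the activity of the enzymes. Of 16 methionine and folate genes 0 passed, 13 were above 0 and 3 below, against 44.2% of all compared genes below 0. Their median was 0.16, which became -0.02 with median scaling. CBS was highest at 0.42 and AHCYL2 lowest at -0.07.

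Pluripotency factors were detected on both arrays. POU5F1 (OCT4) had 11.94 on Nam and 12.08 on E8, and SOX2 had 12.13 on Nam and 12.27 on E8, with its other probe at -0.60. NANOG had 9.95 on Nam, 10.53 on Y27632, 6.03 on Mesoderm and 10.53 on E8, and its 2 probes gave -0.58 and -0.69. Of 27 compared genes of this list 0 were at least 1.5-fold higher and 3 lower, GDF3, PRDM14 and OTX2, with a median of -0.15. PRDM14, a repressor of differentiation genes, had 6.71 on Nam, 8.08 on Y27632, 5.06 on Mesoderm and 8.21 on E8, with a mean of -1.06 over 2 probes (SD 0.62). TRIM71 was highest at 0.12. In the naive list of 9 genes, 3 were lower, DPPA5 (at least 1.78-fold), PRDM14 and KLF4 (-0.60), and 1 was higher, TFCP2L1 (at least 1.78-fold).

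Of 17 genes of the Nodal and TGF-beta list, which holds ligands, inhibitors, receptors and SMADs, 3 were lower: GDF3, NODAL itself, with 8.24 on Nam, 9.22 on Y27632, 5.13 on Mesoderm and 9.07 on E8, and the activin inhibitor FST at -0.74, with both probes within an SD of 0.02. The list median was 0.01 and SMAD4, the shared SMAD, was highest at 0.39. Of 9 BMP targets 1 was lower, HEY1 at -1.16, whose 2 probes differed by an SD of 0.96, and SMAD9 was highest at 0.28. The eye field and neuroectoderm list had 7 of 11 genes lower and 0 higher, with a median of -0.77 against 0.04 over all compared genes, and of -0.39 with no detection filter. The 7 were SIX6, OTX2, SOX21, OLIG3, HESX1 (-0.78), PMEL (-0.77) and NES (-0.62), and DCX was highest at 0.25. Of PAX6, 1 of 3 probes was detected on E8, at 5.61, and 0 on Nam, and SOX1, RAX and LHX2 were detected on no array. FGF and ERK targets had 3 of 17 lower, IL17RD (-0.99, mean -0.71 over 2 probes), IER3 (-0.99) and ETV1 (a bound of at least 1.49-fold), and 1 higher, EGR1 (0.63).

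Structural lists held few genes past 1.5-fold. Of 24 SRF and actin genes 3 were lower, TAGLN, ACTA1 (-0.83) and ACTG2 (a bound of at least 1.21-fold), 1 was higher, EGR1, and the median was 0.02. Beta-actin, ACTB, had 14.62 on Nam and 14.69 on E8 by its brightest probe. In the fibroblast and smooth muscle list 3 of 10 were lower, TAGLN, COL1A2 (8.76 on Nam and 9.73 on E8) and S100A4 (at least 1.83-fold). Of 17 focal adhesion adaptors SORBS2 and FERMT1 (-0.90) were lower. Of 15 targets of YAP, AXL (-0.84, 2 probes within an SD of 0.07) and RBMS3 (a bound of at least 1.12-fold) were lower and IGFBP3 (1.08, mean 0.86 over 2 probes) was higher. SULF1, an editor of heparan sulfate, had 6.42 on Nam, 8.31 on Y27632, 8.26 on Mesoderm and 8.27 on E8, so Nam alone stood apart, by -1.85 on 1 probe.

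Metallothioneins are small proteins that bind zinc and copper and are switched on by metals through the factor MTF1. On Nam they were below E8 in 6 of 6 compared genes, also with median scaling, and 2 of them were past 1.5-fold. By comparison, 44.2% of all compared genes lay below E8, and 70.3% with median scaling. MT1X had 9.88 on Nam, 10.77 on Y27632, 6.90 on Mesoderm and 10.73 on E8, a difference of -0.85. MT1H had 8.93 on Nam and 9.57 on E8, with a mean of -0.85 over 2 probes. The differences of the others, given to complete the family, were -0.58 for MT1E, -0.52 for MT2A, -0.45 for MT1G and -0.20 for MT1F. Y27632 was not below E8 by more than 0.01 in any of the 6, and Mesoderm was below it in all 6. The median of -0.55 compares with 0.04 over all compared genes and was -0.73 with median scaling. Over the alternative settings it ran from -0.73 to -0.33. Members of the family are near-identical and their probes may read each other, so they are not 6 independent values. MTF1 binds metal response elements, whose core was searched as TGCACNC or TGCGCNC on both strands in the RefSeq promoters of build GRCh38.p14, 250 bases before to 50 after each start. The 3 family members with a promoter there are all genes of the plus strand and are printed 5′ to 3′ to show the family's repeated cores. Matches on either strand are in capitals: MT1X at chr16:56682220-56682519, MT1H at chr16:56669564-56669863 and MT2A at chr16:56608334-56608633.
MT1X: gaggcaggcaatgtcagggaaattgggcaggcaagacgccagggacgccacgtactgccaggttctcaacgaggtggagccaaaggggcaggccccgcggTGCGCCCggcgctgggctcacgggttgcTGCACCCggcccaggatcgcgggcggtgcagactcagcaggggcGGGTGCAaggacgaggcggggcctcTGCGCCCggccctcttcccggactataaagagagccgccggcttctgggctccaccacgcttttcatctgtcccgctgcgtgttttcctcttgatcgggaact
MT1H: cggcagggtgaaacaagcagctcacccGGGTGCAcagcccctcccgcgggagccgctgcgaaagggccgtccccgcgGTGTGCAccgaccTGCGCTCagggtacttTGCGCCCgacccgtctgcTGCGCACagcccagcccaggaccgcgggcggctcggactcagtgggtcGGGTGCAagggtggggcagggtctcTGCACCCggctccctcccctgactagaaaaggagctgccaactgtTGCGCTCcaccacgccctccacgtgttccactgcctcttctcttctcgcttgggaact
MT2A: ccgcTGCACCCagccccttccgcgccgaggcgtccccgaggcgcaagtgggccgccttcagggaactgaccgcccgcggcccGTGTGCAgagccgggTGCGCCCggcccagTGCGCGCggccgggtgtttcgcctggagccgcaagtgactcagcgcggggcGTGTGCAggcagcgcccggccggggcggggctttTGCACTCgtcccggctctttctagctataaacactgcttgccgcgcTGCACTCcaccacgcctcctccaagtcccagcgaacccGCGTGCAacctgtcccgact
MT1X holds 4 matches, MT1H 8 and MT2A 8, with no overlaps among them. Of all 35116 promoters 29.6% hold at least 1 match and 0.601% at least 4. A match is a run of letters and not a measured site, and binding of MTF1 was not measured.

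Glycolysis and hypoxia genes lay below E8 in 30 of 33 cases, against 44.2% of all compared genes, by small amounts. With median scaling it was 32 of 33, against 70.3%. At 1.5-fold 3 were lower and 0 higher, and the median was -0.30 (-0.47 with median scaling, and -0.47 to -0.24 over the alternative settings). The 3 were DDIT4, NDRG1 (-0.88), a stress gene induced by low oxygen, and ANKRD37 (-0.60). NDRG1 had 6.15 on Nam, 7.13 on Y27632, 7.85 on Mesoderm and 7.04 on E8. VEGFA was highest at 0.28. GAPDH, a glycolytic enzyme often used as a constant, had 13.76 on Nam, 13.88 on Y27632, 13.65 on Mesoderm and 13.90 on E8, with 3 probes at -0.41 to -0.14. ARRDC4 and TXNIP, described above, were higher on Nam.

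**Figure D4:**
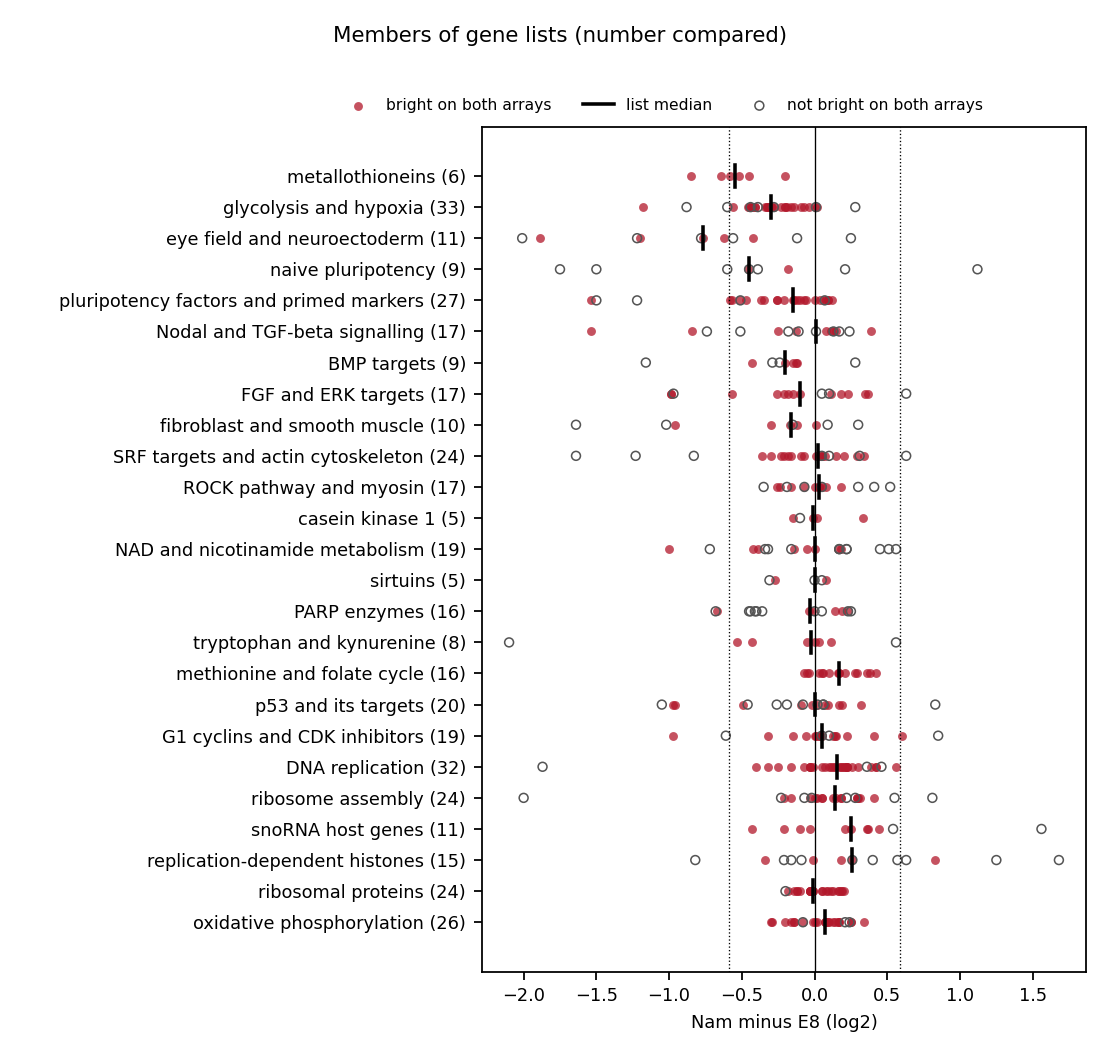
Difference, Nam minus E8 (x axis, log2), of the compared members of 25 gene lists (rows, with the number compared). Filled points are genes bright on both arrays, open points are not, thick bars are list medians and dotted lines mark 1.5-fold. Metallothioneins and all but 3 glycolysis and hypoxia genes lie below 0, while casein kinase 1, ROCK, sirtuin and NAD lists centre on 0 (at -0.20 to -0.15 with median scaling).

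Growth and cell cycle lists held small differences of mixed direction. MYC had 11.03 on Nam, 10.41 on Y27632, 9.72 on Mesoderm and 10.43 on E8, with a mean of 0.59 over 2 probes and an SD of 0.03. The cell cycle inhibitor CDKN1A had 8.10 on Nam, 9.17 on Y27632, 12.81 on Mesoderm and 9.07 on E8, a difference of -0.97 on 1 probe. E2F1, which drives S phase genes, stood at 0.85 with 6.79 on Nam and 5.94 on E8, and CDKN2D at -0.61. Of 20 genes of the p53 list 3 were lower, CDKN1A, DDB2 of DNA repair (-1.05) and ZMAT3 (-0.96, mean -0.49 over 3 probes), and MDM2, the ubiquitin ligase of p53, counted as higher with a bound of at least 1.23-fold. The p53 list median was 0.00.

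Of 32 DNA replication genes 1 was lower, GINS4 of the replicative helicase, with 6.76 on Nam, 7.52 on Y27632, 6.01 on Mesoderm and 8.63 on E8, and RFC5 was highest at 0.56. The replication median of 0.15 became -0.03 with median scaling. Of 24 ribosome assembly genes UTP20 (0.81) was higher and FCF1 lower, with 6.74 on Nam, 8.55 on Y27632, 5.91 on Mesoderm and 8.73 on E8 and a mean of -2.17 over 2 probes. Of 11 hosts of small nucleolar RNAs SNHG12 was higher, with 7.48 on Nam and 5.92 on E8. Of 15 replication-dependent histone genes 4 were higher, H4C8 (1.68), H2BC5 (1.25), H2BC12 (0.83) and H4C5 (a bound of at least 1.33-fold), and H2BC9 was lower (-0.82). The mean of H2BC12 over 2 probes was 0.55 (SD 0.39), under 1.5-fold. Most of these histone messages lack a poly(A) tail. Of 15 Notch genes HES4 (0.72) and DNER (1.35) were higher and HES1 (-0.60) and HEY1 lower. Ribosomal protein genes, 24 in number, and oxidative phosphorylation genes, 26 in number, had 0 past 1.5-fold, with medians of -0.01 and 0.07.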

How the data were processed

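RNA of 4 cultures of human embryonic stem cells was measured on 1 BeadChip array each. Per the file headers, the deposited non-normalized table gives for each array the intensity of 47296 probes with its detection p-value. The authors' second deposited table holds normalized log2 values whose method is not given in the sources used here. The series matrix was identical to it (0 cells differ), showed no centring of genes, and had column medians of 5.58. Samples were assigned by title. With limma 3.58.1 (R 4.3.3), neqc corrected the background by way of the detection p-values and quantile-normalized the 4 arrays after adding 16, and log2 was taken. The offset understates differences of dim genes. The steps were tested on simulated data. Tables were made in Python 3.11.15 with pandas 2.3.3.

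Of the probes, 30105 had 1 gene symbol, 8 several and 17183 none here. A gene was represented by its detected probe (detection p at most 0.01) with the highest mean over the 4 arrays. Lower bounds were taken against the dim value or, where higher, the lowest level of any detected probe, 5.54 on Nam and 5.59 on E8. Precision is limited by the number of arrays.

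The comparison and the 42 gene lists were chosen with earlier results of these data known. The genes named were all bright genes at least 2-fold higher and the 30 most negative bright genes. Among genes with agreeing probes they were all 9 higher ones and the 12 with the most negative mean. The 6 each way with the largest bound were also named. So were the highest, the lowest and the members past 1.5-fold of each list described, and 14 genes of nicotinamide, kinase, pluripotency and control interest. Others are named as examples after their values were seen. Alternatives were other scalings, offsets, filters, the authors' values and means over probes. Lists not described in the text are left out for length.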

Additional observations from a re-analysis of the deposited data

Results flagged for a closer look

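Of 17191 probes without 1 gene symbol, which enter no comparison of genes, 1448 were bright on both arrays. Of these, 15 (1.04%) were at least 2-fold lower on Nam than on E8, the furthest at -1.63, and 0 were at least 2-fold higher, the furthest at 0.74. They were singled out because they carry signal outside the gene comparisons, and they are not named here. With 1 array per condition no array could be set against others of its own group.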

How the results depend on the processing

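All differences rest on 1 array per side, so no setting tests them against replicate error, and brightness over background limits what can be seen. No paired analysis was possible because each group has 1 array. The 79 genes at least 2-fold higher became 52 with median scaling, 2 without background correction, 10 with an offset of 50, 36 with the authors' normalized values, 25 with detection on both arrays and 7 with a level of at least 8 on the brighter array. The 178 lower became 341, 29, 61, 106, 106 and 71 under the same settings. Higher genes were 30.7% of the 2-fold calls, and 13.2% with median scaling, 6.45% without background correction, 14.1% with an offset of 50, 25.4% with the authors' values, 19.1% with detection on both arrays and 8.97% with that level. The 2 bright genes higher became 1 with median scaling, with normalization over the Nam and E8 arrays only, with an offset of 50 and with the mean over detected probes. The 43 bright genes lower became 87 with median scaling, 24 without background correction and 26 with the mean over detected probes, and 43, 22 and 25 of these were among the 43. With the authors' values 39 of their 40 were. The median of all compared genes was -0.15 with median scaling and 0.04 with quantile normalization. Among the named genes at least 1.5-fold apart in the main setting, of 173 named in all, only TRIM13 changed sign. It went to 0.02 with the mean over its probes, since its other probes go the other way. Smaller differences also crossed 0 under some settings, such as that of PARP3, at 0.25 and down to -0.19. Of 1636 values of named genes under the alternatives 1512 lay within 0.30, the SD between probes, of the main value. The rest were 123 that did not and the 1 value of TRIM13 that changed sign. Of 418 list medians 410 did and 8 did not.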
